A study of Mus musculus with 13 samples.

Results

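The genes described here are 10 genes of axon growth and the growth cone, taken by name from the 50508 genes listed in UMI (unique molecular identifier) tables of single neurons sorted as proprioceptive sensory neurons (pSNs): *Gap43*, *Basp1* and *Marcksl1*, the stathmins *Stmn1*, *Stmn2* and *Stmn3*, the microtubule-binding gene *Dcx*, the collapsin response mediators *Dpysl3* and *Crmp1*, and the transcription factor *Sox11*. All 10 were chosen for their known roles and not for their values, although other results of these data were known. Dorsal root ganglia of mice were dissociated, and single labelled neurons were sorted into 96-well plates and sequenced by Plate-seq, which counts the 3′ ends of transcripts with UMIs. Neurons of adult mice (older than 56 days, from 6 animals), p12 mice (4 animals) and p0 mice (6 animals) carried *PV:Cre*, *Rx3:Flp* and the *Ai65* reporter, each as 1 copy (*PVRx3:tdT*), so that tdTomato marked cells that had expressed both PV and Rx3. Neurons at e14.5 came from 2 animals with *TrkC:tdTomato*, which reports the neurotrophin receptor TrkC instead and also labels sensory neurons other than pSNs. Stage and label therefore cannot be told apart at e14.5, and enzyme digestion also differed between the stages (16 min per step for adult ganglia, 12 for p12, and 10 for both younger stages).

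The authors' annotation kept 586 of 1248 wells as neurons: 169 at e14.5 on 2 plates, 55 at p0 on 2, 154 at p12 on 4 and 208 in the adult on 5. Plates are the replicates here. Adult neurons came from 3 experiments. Which animals, of either sex, or which experiment filled a given plate is not stated, so p-values measure the spread between plates, which may be technical. The plates share the same 96 well barcodes. Mean depth per neuron on a plate was 9669 to 13061 UMIs at e14.5, 38306 to 44139 at p0, 21753 to 65165 at p12 and 33828 to 59682 in the adult. *Pvalb* (PV) averaged 622 ± 23.4 CPM (counts scaled to 1000000 UMIs in each neuron) at e14.5 and 3577 ± 21.5 CPM at p0 (SD, n = 2 plates), and all 5 proprioceptor markers were detected at each stage. The pan-neuronal gene *Uchl1* was listed at 0 on every plate. The fibroblast, endothelial, immune and cell division lists each summed to at most 31.97 CPM on any plate, the highest being fibroblast markers in the adult. The 4 nociceptor markers summed to 61.2 to 101 CPM at e14.5, 97.1 to 169 at p0, 41.3 to 192 at p12 and 8.83 to 196 in the adult. At each stage 3 of these 4 genes were under 10 CPM, and only *Tac1* passed the filter on low counts used below. The paper also describes *Tac1* as a marker of a subset of adult proprioceptors. The sum therefore cannot tell nociceptor transcripts from those of such proprioceptors. The 12 markers of satellite glia and Schwann cells summed to 85.5 to 106 CPM at e14.5, with 5 of them at 0, and to 566 to 679 at p0, 227 to 621 at p12 and 333 to 882 in the adult.

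A growing axon is led by the growth cone, in which actin at the membrane and microtubules behind it are constantly rebuilt. GAP-43, BASP1 and the MARCKS-like protein bind the inner face of the membrane and regulate actin there, stathmins and doublecortin act on microtubules, and the collapsin response mediators link guidance signals to the cytoskeleton. In sensory neurons many of these genes are active while axons grow to muscle and spinal cord, become quieter as connections mature, and can be turned on again when a peripheral nerve is injured.

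The sequence before the transcription start was available in RefSeq (GRCm38.p6) for 6 of the 10 genes. Those of *Basp1*, *Marcksl1*, *Sox11* and *Stmn3* are printed because these genes stand for the different time courses described next: *Basp1* and *Marcksl1* were called lower after birth, *Sox11* fell most steeply before birth, and *Stmn3* rose before birth. Each is the 250 bases before the start, 5′ to 3′ on the strand of the gene, and overlaps no exon of the GENCODE M21 annotation. Capitals mark GC boxes (GGGCGG or its complement on the other strand).
Basp1 (chr15:25413765-25414014, minus strand): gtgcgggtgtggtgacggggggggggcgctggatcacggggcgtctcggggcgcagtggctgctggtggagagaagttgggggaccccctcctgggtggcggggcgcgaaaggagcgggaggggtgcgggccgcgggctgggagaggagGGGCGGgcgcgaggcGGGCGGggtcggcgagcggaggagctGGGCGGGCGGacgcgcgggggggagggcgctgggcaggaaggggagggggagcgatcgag
Marcksl1 (chr4:129513331-129513580, plus strand): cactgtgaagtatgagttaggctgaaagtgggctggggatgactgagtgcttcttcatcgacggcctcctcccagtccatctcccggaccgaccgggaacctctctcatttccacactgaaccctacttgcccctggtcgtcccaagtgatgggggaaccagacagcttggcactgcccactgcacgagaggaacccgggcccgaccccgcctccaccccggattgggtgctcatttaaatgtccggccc
Sox11 (chr12:27342719-27342968, minus strand): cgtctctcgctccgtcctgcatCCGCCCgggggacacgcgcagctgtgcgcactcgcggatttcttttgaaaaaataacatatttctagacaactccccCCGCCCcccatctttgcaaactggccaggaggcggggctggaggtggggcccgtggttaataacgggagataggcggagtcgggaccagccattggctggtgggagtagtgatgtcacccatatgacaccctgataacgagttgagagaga
Stmn3 (chr2:181314501-181314750, minus strand): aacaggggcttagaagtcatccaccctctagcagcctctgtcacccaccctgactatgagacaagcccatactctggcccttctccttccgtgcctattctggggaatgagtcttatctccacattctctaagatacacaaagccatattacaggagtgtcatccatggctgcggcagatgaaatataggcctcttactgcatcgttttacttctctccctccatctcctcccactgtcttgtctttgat

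*Basp1* had 4 GC box matches, of which a pair overlap, and *Sox11* had 2. *Marcksl1* and *Stmn3* had 0, although 60.4% of the *Marcksl1* bases were G or C against 48.8% for *Stmn3* and 78.8% for *Basp1*. The motif was found on either strand in 32.7% of the 32851 RefSeq windows of the same length. TATAAA (12.4% of windows), AACAAT (9.42%) and TGACGTCA (1.55%) were in none of these 4 sequences. CANNTG, present in 66.2% of windows, occurred at 2 places in *Sox11*, at 1 in *Marcksl1* and *Stmn3* and at none in *Basp1*. These matches describe letters in the window and were not tested against expression.

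**Figure D1:**
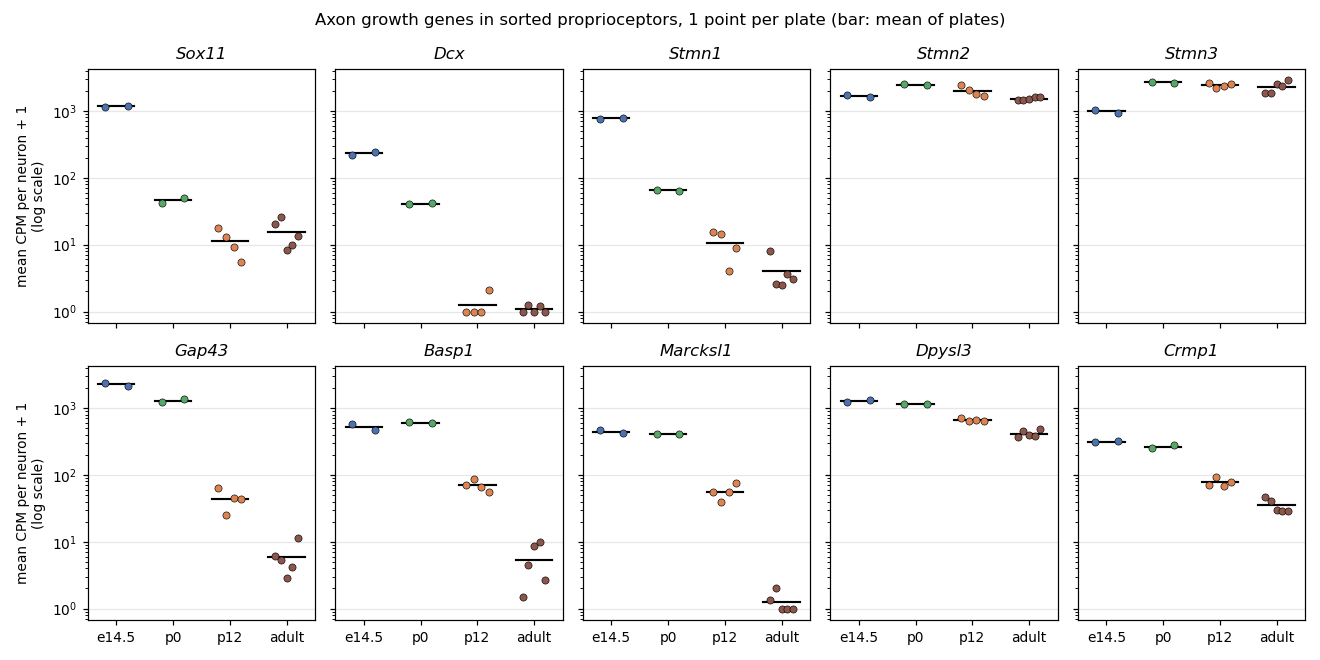
Mean CPM per neuron (plus 1, log axis) of the 10 genes at e14.5, p0, p12 and in the adult, with 1 point per plate and a bar at the mean of the plates. *Sox11*, *Dcx* and *Stmn1* drop between e14.5 and p0, *Gap43*, *Basp1* and *Marcksl1* between p0 and p12 and again in the adult, while *Stmn2* and *Stmn3* stay at 922 CPM or more on every plate.

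The 10 genes together made up 0.967% of the UMIs of a neuron at e14.5, 0.903% at p0, 0.532% at p12 and 0.430% in the adult (means of plates). Most of what remained was *Stmn2* and *Stmn3*: without them the share was 0.700% at e14.5, 0.387% at p0, 0.0927% at p12 and 0.0477% in the adult. The mean number of the 10 genes with a UMI in a neuron was 9.77 to 9.80 on the e14.5 plates and 4.35 to 4.68 on the adult plates. With each neuron thinned to 7000 UMIs, it was 9.51 to 9.52, 7.67 to 7.68, 4.33 to 4.58 and 3.28 to 3.58 over the 4 stages in order, so the ranges of consecutive stages did not overlap.

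The stages were compared with edgeR's quasi-likelihood test on UMIs summed over the kept neurons of a plate, with adjusted p (Benjamini-Hochberg) under 0.05 over all 11939 genes that passed the filter on low counts. All 10 genes passed it, several of them only because of their levels at e14.5 or p0. From e14.5 to p0, 4 of the 10 genes were called, 3 lower and 1 higher, where 27.8% of all genes were called (14.7% higher, 13.1% lower). From p0 to p12, 8 of 10 were lower and none higher, against 9.01% of all genes lower and 9.1% higher. From p12 to the adult, 7 of 10 were lower and none higher, against 6.56% of all genes lower and 7.57% higher. Between p0 and the adult directly, 9 of 10 were lower, all but *Stmn3*, against 16.4% of all genes. With single plates left out, 4 genes were called from e14.5 to p0, 7 to 8 from p0 to p12, 5 to 6 from p12 to the adult and 7 to 9 from p0 to the adult, so the 7 calls from p12 to the adult were not reached in any such fit. The median log2 fold change of the 10 genes was -0.25, -2.52 and -0.99 in the consecutive comparisons, and over all genes it was 0.01, 0.02 and 0.04. Consecutive comparisons share the plates of the stage between them.

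**Figure D2:**
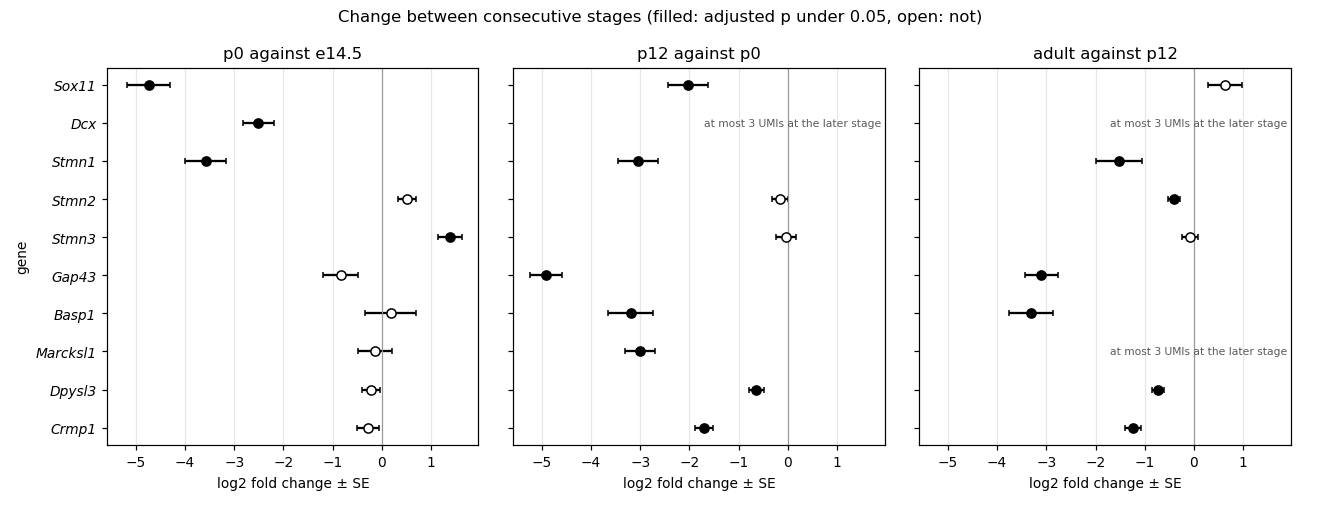
Log2 fold change with its standard error (edgeR) of each gene in the 3 consecutive stage comparisons; filled points have an adjusted p under 0.05, and no point is drawn where the later stage had at most 3 UMIs. The left panel holds 3 called falls, from -2.51 to -4.74, and the rise of *Stmn3*; in the middle and right panels every called point is a fall.

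*Sox11* (chromosome 12, 27334268 to 27342718), a SoxC transcription factor of young neurons, showed the steepest fall before birth. It averaged 1165 and 1206 CPM on the e14.5 plates and 40.9 and 49.1 CPM on the p0 plates, a change of -4.74 on the log2 scale (standard error 0.44, adjusted p = 6.66e-06). This ranked 34th from the most lowered of 11939 genes. At p12 the plates gave 16.5, 11.9, 8.19 and 4.57 CPM, lower again by a log2 fold change of -2.03 (adjusted p = 0.00281), and every p12 plate lay below both p0 plates. In the adult the 5 plates gave 19.6, 24.9, 7.35, 9.01 and 12.5 CPM. *Sox11* was thus not lower in the adult than at p12: the difference was 0.64 on the log2 scale (standard error 0.35, adjusted p = 0.237), with overlapping plates. With adult replicates 1 and 2 alone, which also hold all neurons of adult clusters 2 and 4, it was 1.18 (adjusted p = 0.0237). Within adult cluster 1, which lay on all 5 plates, *Sox11* was 22.3 and 29.7 CPM on replicates 1 and 2, and 4.71, 10.5 and 27.3 CPM on replicates 3, 4 and 5, the last from 3 neurons. Between p0 and the adult the fall was called at -1.39 (adjusted p = 0.00671) but not once p0 replicate 2 was left out (adjusted p = 0.0744), nor after thinning every neuron to 7000 UMIs (0.0626) or with adult replicates 1 and 2 only (0.0520). *Sox11* still had a UMI in 32.6% to 49.1% of adult neurons by plate, and in 2.50% to 22.6% after thinning.

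*Dcx* (chromosome X, 143855842 to 143933396) encodes doublecortin, a microtubule-binding protein of young, migrating and growing neurons. Its level was 220 and 241 CPM at e14.5 and 39.0 and 41.2 CPM at p0, with a log2 difference of -2.51 and a standard error of 0.31 (adjusted p = 8.51e-05). After birth it was all but gone. The 154 neurons of p12 held 1 UMI of *Dcx* and the 208 adult neurons held 2, where the 55 p0 neurons had held 92. The pooled level at p0 was 190 times that at p12 (95% counting interval 33.2 to 7571), and the adjusted p of the fall was 2.22e-06. No fold is given between p12 and the adult, since both are at or under 3 UMIs.

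*Stmn1* (chromosome 4, 134468320 to 134473843) encodes stathmin 1, which binds free tubulin and destabilises microtubules. At e14.5 it stood at 769 and 795 CPM and at p0 at 64.2 and 63.3 CPM, for a log2 fold change of -3.58 with a standard error 0.41 (adjusted p = 4.54e-05). At p12 the 4 plates gave 14.7, 13.3, 3.06 and 8.02 CPM, a further log2 fold change of -3.05 (adjusted p = 1.51e-04). Replicates 1 and 2, the higher pair, hold p12 clusters 2 and 3 and the deeper neurons, and replicates 3 and 4 hold the other clusters, so plate pair and cluster cannot be told apart at p12. In the adult, *Stmn1* gave 7.10, 1.57, 1.51, 2.68 and 2.08 CPM, with 23 UMIs in all. The difference from p12 was just called at -1.53 (standard error 0.47, adjusted p = 0.0434), and the plates overlapped. It was not called without p12 replicate 1, 2 or 4 (adjusted p = 0.109, 0.0688 and 0.117) or without adult replicate 2, 3, 4 or 5 (0.0793, 0.0894, 0.0561 and 0.0536).

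*Stmn2* (chromosome 3, 8509527 to 8561604) and *Stmn3* (chromosome 2, 181306459 to 181314500), the neuronal stathmins anchored to membranes, did not follow *Stmn1*. Both had a UMI in 100% of kept neurons at every stage. *Stmn3* rose from 1048 and 922 CPM at e14.5 to 2722 and 2638 CPM at p0, a change of 1.39 on the log2 scale (standard error 0.24, adjusted p = 8.59e-04), and was the only one of the 10 genes called higher between stages. It then stood at 2603, 2182, 2385 and 2510 CPM at p12 and at 1835, 1874, 2502, 2398 and 2893 CPM in the adult. Adult replicates 1 and 2 were lowest, and the log2 differences of -0.03 (p12 against p0) and -0.08 (adult against p12) were not called.

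*Stmn2* averaged 1760 and 1594 CPM at e14.5 and 2524 and 2435 CPM at p0, above e14.5 on both plates, at a log2 fold change of 0.52 that just missed the call (adjusted p = 0.0507). Its p12 plates gave 2408, 2030, 1803 and 1655 CPM, and its adult plates 1480, 1449, 1499, 1596 and 1598 CPM, all below p12. The change from p12 to the adult was small, -0.40 on the log2 scale (standard error 0.12, adjusted p = 0.0420). That call was lost without p12 replicate 1, 3 or 4 (adjusted p = 0.0752, 0.0841 and 0.0562) or without adult replicate 1, 2 or 3 (0.0587, 0.0625 and 0.0643). The fall from p0 to the adult (-0.57, adjusted p = 0.00898) was not called without p0 replicate 1 (0.0923) or replicate 2 (0.0752).

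*Gap43* (chromosome 16, 42248552 to 42340651), which encodes the growth-associated protein of the growth cone membrane, was still abundant at birth and then fell in both postnatal intervals. Its e14.5 plates gave 2347 and 2168 CPM and its p0 plates 1211 and 1361 CPM, a difference that was not called (log2 fold change -0.84, adjusted p = 0.0887), although the plates did not overlap. At p12 it stood at 62.6, 23.8, 44.4 and 41.9 CPM, with a log2 difference of -4.92 and a standard error of 0.32 (adjusted p = 9.03e-07) that ranked 26th from the most lowered gene. In the adult it reached 5.16, 4.40, 1.90, 3.19 and 10.2 CPM, again lower, for a log2 fold change of -3.10 with a standard error 0.33 (adjusted p = 6.35e-05). *Gap43* had a UMI in 100% of neurons at e14.5 and p0, in 53.2% to 83.3% at p12 by plate, and in 9.62% to 40.0% in the adult. The highest adult plate, replicate 5, was also the plate with the highest *Apoe* (651 CPM, against 244 on the lowest adult plate). Without replicate 5 the fall from p12 was -3.44 (adjusted p = 2.55e-05). All adult plates carried *Apoe*, and the part of satellite glia in the adult *Gap43* level was not tested.

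*Basp1* (chromosome 15, 25363277 to 25413764), a membrane protein related in function to GAP-43, was level before birth at 567 and 463 CPM at e14.5 and 612 and 595 CPM at p0 (adjusted p = 0.836). It fell to 69.9, 85.4, 65.6 and 55.4 CPM at p12, a change of -3.20 on the log2 scale (standard error 0.46, adjusted p = 2.64e-04), and to 0.473, 3.49, 7.51, 8.78 and 1.68 CPM in the adult (-3.31, standard error 0.45, adjusted p = 4.40e-04). Every plate of a later stage was below every plate of the stage before it in both steps. The size of the second step moved with the adult neurons and plates included: it was -3.96 without adult replicate 3, -5.42 with replicates 1 and 2 alone, and -6.10 with only the neurons of numbered clusters.

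*Marcksl1* (chromosome 4, 129513581 to 129515981), whose product binds actin and calmodulin at the membrane, went from the level of p0 to almost nothing. It stood at 467 and 420 CPM at e14.5 and at 404 and 413 CPM at p0 (adjusted p = 0.791), and then fell to 55.2, 37.8, 54.0 and 74.8 CPM at p12 (log2 fold change -3.00, standard error 0.30, adjusted p = 1.51e-05). In the adult, 3 UMIs were found in 208 neurons, 1 in each of 3 neurons on replicates 1 and 2, and replicates 3, 4 and 5 had 0. The pooled p12 level was 147 times the adult level (95% counting interval 49.5 to 716), with an adjusted p of 6.79e-07. The interval covers counting error only, and the fitted log2 change, -6.83, was -7.75 without adult replicate 2 and -6.47 without adult replicate 3. In the main fit *Marcksl1* had the lowest fitted change of the 11939 genes between p12 and the adult. That estimate rests on 3 adult UMIs and ran from -8.98 to -4.05 over the alternatives, so no rank is read from it.

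*Dpysl3* (chromosome 18, 43320979 to 43438286) and *Crmp1* (chromosome 5, 37242058 to 37292163), both collapsin response mediators, declined in smaller steps and were never lost. *Dpysl3* gave 1222 and 1331 CPM at e14.5, 1164 and 1146 at p0, 701, 647, 653 and 649 at p12, and 369, 452, 394, 380 and 479 in the adult. No plate of a stage overlapped the next. The fall after birth was -0.64 on the log2 scale (standard error 0.15, adjusted p = 0.00990), not called without p0 replicate 1 (0.0831) or 2 (0.0881), and that from p12 to the adult was -0.74 (standard error 0.12, adjusted p = 0.00160). *Dpysl3* had a UMI in every kept neuron at all 4 stages.

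*Crmp1* gave 312 and 316 CPM at e14.5 and 253 and 275 CPM at p0, which did not differ by the test (log2 fold change -0.28, adjusted p = 0.354). At p12 it gave 70.3, 92.3, 66.7 and 76.4 CPM, and in the adult 45.8, 40.3, 28.9, 27.8 and 28.2 CPM. Both postnatal steps were called, at -1.70 (standard error 0.19, adjusted p = 3.08e-05) and -1.23 (standard error 0.16, adjusted p = 2.90e-04), and the stages did not overlap. *Crmp1* kept a UMI in 55% to 80% of adult neurons by plate, more than any other of the 10 genes but *Dpysl3*, *Stmn2* and *Stmn3*.

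**Figure D3:**
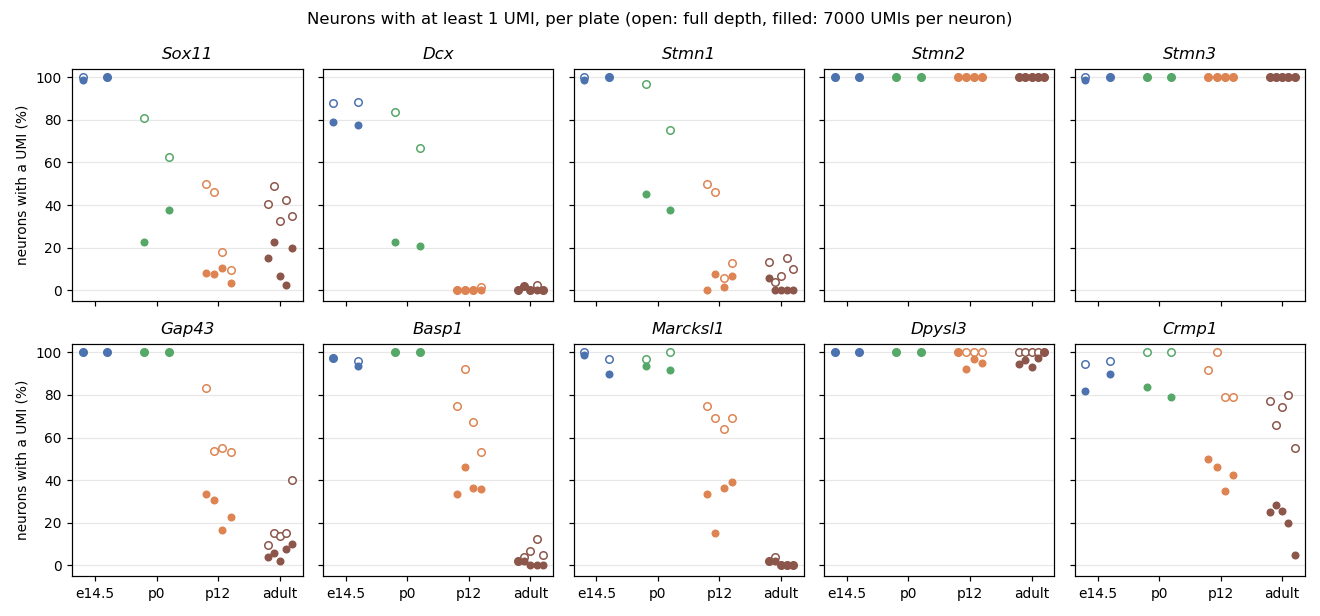
Percent of kept neurons with at least 1 UMI of each gene, 1 point per plate and stage, at full depth (open) and with every neuron thinned to 7000 UMIs (filled). *Stmn2* and *Dpysl3* stay at 92.3% or more throughout, and thinned *Gap43* goes from 100% at e14.5 and p0 to at most 33.3% at p12 and 10% in the adult.

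The same order was seen at equal depth. With every neuron thinned to 7000 UMIs (566 of 586 neurons reached that depth, with 151 of 169 at e14.5 and 152 of 154 at p12), *Sox11* had a UMI in 98.6% to 100% of neurons at e14.5 and in 22.6% to 37.5% at p0, and *Stmn1* in 98.6% to 100% and 37.5% to 45.2%. *Basp1* had one in 100% of neurons at p0, 33.3% to 46.2% at p12 and 0% to 1.92% in the adult, and *Marcksl1* in 91.7% to 93.5%, 15.4% to 39.3% and 0% to 1.92%. At 7000 UMIs the shares of the low genes lie near the level of a single UMI, and no order between the adult plates is read from them.

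The wells left out of the annotation were richer in satellite glia transcripts, and adult *Marcksl1* was higher there on every plate. In the 242 adult wells with at least 2000 genes that the annotation left out, *Apoe* averaged 5288 to 9539 CPM by plate against 244 to 651 in the kept neurons. *Marcksl1* was 6.18 to 12.1 CPM in those wells against 0 to 1.00 CPM in the kept neurons, and *Basp1* 4.19 to 34.7 against 0.473 to 8.78. *Gap43* was 0 to 59.6 CPM, where 178 of the 262 UMIs on replicate 5, the highest, came from 1 well. With all wells of at least 2000 genes in place of the kept neurons, the fall of *Gap43* from p12 to the adult was -1.23 (adjusted p = 0.314), while *Marcksl1* and *Basp1* were called at smaller changes, -4.05 in place of -6.83 (adjusted p = 1.35e-05) and -2.24 in place of -3.31 (0.0144).

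The annotation divides the kept neurons into 4 clusters at e14.5, 3 at p0, 5 at p12 and 5 in the adult, with 42 adult neurons in no numbered cluster. The paper proposes that some of those unnumbered neurons, and e14.5 clusters 3 and 4, may be other than proprioceptors. For each plate, the UMIs of each cluster were summed, and the sums were tested for any difference across the clusters of a stage. Since the clusters were found in the same neurons, these tests say how far plates repeat a difference and are no independent evidence of it. At e14.5 (10 genes tested, 4.32% of all genes called) and at p0 (10 tested, 1.52% called), none of the 10 genes was called by edgeR or by DESeq2, and 0 had an unadjusted p under 0.05 by either. In the adult, 5 of the 10 passed the filter on low counts and none was called by edgeR (0 at an unadjusted p under 0.05, 9.67% of all genes called), while DESeq2 also called 0 of 6 and had 1 at an unadjusted p under 0.05. Of all genes, edgeR had 652 of 4912 at e14.5, 479 of 5061 at p0 and 1843 of 7370 in the adult at an unadjusted p under 0.05. By DESeq2 these were 266, 262 and 1814 genes. Its calls by adjusted p were 105 of 4998, 64 of 10103 and 797 of 11588 genes.

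*Etv1* averaged 774 and 816 CPM in e14.5 clusters 1 and 2 but 108 and 36.3 CPM in clusters 3 and 4 (34 and 6 of the 169 neurons), and *Pvalb* 663 and 768 against 275 and 220 CPM. With clusters 1 and 2 alone at e14.5 and only numbered clusters in the adult, the 4 calls from e14.5 to p0 remained and *Stmn2* was added (0.54, adjusted p = 0.0458). *Gap43* averaged 2452, 2097, 2394 and 2639 CPM in e14.5 clusters 1 to 4, and *Sox11* 1042, 1271, 1138 and 1228 CPM. The values of cluster 4 are those of its 5 neurons on replicate 2, since the sixth, alone on replicate 1, fell below the minimum of 2 neurons. *Dpysl3* was 2018 CPM in these 5 neurons, 635 CPM in the sixth and 1213 to 1322 CPM in clusters 1 to 3, without a call (adjusted p = 0.614). At p0, *Gap43* averaged 1227, 1315 and 1470 CPM in clusters 1 to 3 and *Basp1* 616, 596 and 570 CPM. *Dcx* was 47.0 and 50.6 CPM on the plates of p0 cluster 1, 25.6 and 27.2 CPM in cluster 2, and 22.2 and 23.1 CPM in cluster 3, so cluster 1 stood apart from both others without a call (adjusted p = 0.549). *Sox11* averaged 46.2, 58.1 and 20.3 CPM in these clusters (adjusted p = 0.795). Cluster 3, 8 neurons, held 1679 CPM of *Apoe* and 1470 CPM of *Fabp7*, against 51.2 and 27.4 CPM in cluster 1. Leaving cluster 3 out of the p0 plates left the calls of the 10 genes in place in the 3 comparisons that include p0 and added that of *Stmn2* from e14.5 to p0 (adjusted p = 0.0468).

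At p12, 7 of the 10 genes passed the filter and 2 differed across the 5 clusters, *Basp1* (adjusted p = 0.00514) and *Marcksl1* (adjusted p = 0.00298), where 31.5% of all genes were called. That share is close to 2 of 7, so the count says nothing particular of these genes. *Marcksl1* was higher in cluster 1 than in the mean of the other clusters by 1.66 on the log2 scale (standard error 0.33, adjusted p = 5.87e-04, 22.7% of all genes called). *Basp1* was higher in cluster 2 by 0.81 (adjusted p = 0.0312, 21% called) and lower in cluster 4 by -1.04 (adjusted p = 0.0137, 6.59% called). In the 14 other contrasts of 1 cluster against the mean of the rest of its stage, none of the tested genes of the 10 was called by edgeR. Of the 109 tests of a gene in these contrasts, 6 had an unadjusted p under 0.05, and no more is read from that number. The largest of these in the adult was in cluster 3, where *Sox11* was lower by -1.66 on the log2 scale (adjusted p = 0.120). DESeq2 was not run on these contrasts. All genes were called at 12.3% and 5.41% in p12 clusters 3 and 5, at 5.69%, 0.0271%, 0.095%, 2.73% and 4.03% in adult clusters 1 to 5, at 0.316%, 1.21% and 0.593% in p0 clusters 1 to 3, and at 1.16%, 2.28%, 2.08% and 0.0611% in e14.5 clusters 1 to 4. Without p12 replicate 3 the adjusted p of *Marcksl1* was 0.0513, and without replicate 4 that of *Basp1* was 0.111. Without replicate 2, *Gap43* (0.00228) and *Stmn2* (0.0304) were called as well, and *Gap43* also without replicate 1 (0.00859). With plate as a replicate block, *Gap43* joined the calls (adjusted p = 0.00725), which made 3 of 7, where 814 of all 6209 genes were called.

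**Figure D4:**
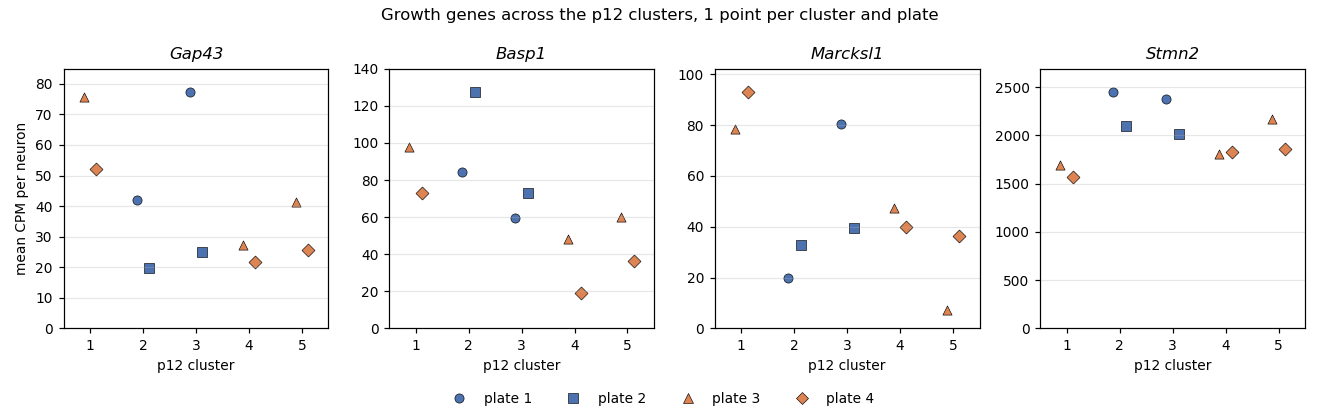
Mean CPM per neuron of *Gap43*, *Basp1*, *Marcksl1* and *Stmn2* in the 5 clusters of p12, 1 point per cluster and plate (replicates 1 to 4 as plates 1 to 4). Clusters 2 and 3 lie on plates 1 and 2 and the others on plates 3 and 4, and cluster 1 stands above cluster 4 on both shared plates for *Gap43*, *Basp1* and *Marcksl1* but not for *Stmn2*.

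Clusters 2 and 3 lay on replicates 1 and 2 alone, and clusters 1, 4 and 5 on replicates 3 and 4, so most cluster contrasts at p12 are also contrasts of plates. Clusters 1 (63 neurons) and 4 (58 neurons) share both their plates and were compared after their values had been seen. *Basp1* averaged 98.0 and 73.2 CPM in cluster 1 on replicates 3 and 4, and 48.1 and 19.1 CPM in cluster 4, a log2 difference of 1.27 (standard error 0.31, adjusted p = 0.0427) in a comparison that called 0.966% of all genes (0.58% higher in cluster 1, 0.387% lower). Without replicate 3 or 4 each cluster was left with 1 sum, and the spread came from the other clusters, as if the lone sums varied like them: the difference was then not called (adjusted p = 0.274 and 0.999). *Gap43* gave 75.6 and 52.0 CPM in cluster 1 against 27.3 and 21.7 CPM in cluster 4 (log2 difference 1.24, adjusted p = 0.224, with plate as a replicate block 0.0160). *Marcksl1* gave 78.4 and 92.9 CPM against 47.4 and 39.8 CPM (log2 difference 1.12, adjusted p = 0.163, with the block 0.0453). On both plates cluster 1 was thus above cluster 4 for these 3 genes. *Stmn2* was lower in cluster 1, at 1690 and 1566 CPM against 1809 and 1825 CPM, and was not called (-0.16, adjusted p = 0.749). The neurons of cluster 1 were also shallower, with a median of 16185 UMIs against 29649 in cluster 4. After thinning to 7000 UMIs, *Basp1* had a UMI in 47.6% and 45.0% of cluster 1 neurons on replicates 3 and 4 and in 25.6% and 21.1% of cluster 4 neurons. For *Marcksl1* these shares were 38.1% and 45.0% against 38.5% and 26.3%, which did not keep the order on replicate 3. The part of depth in the difference of CPM was not tested further.

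The few adult UMIs of *Basp1* came from few neurons. Of its 60 UMIs, found in 12 of 208 neurons, 54 (90%) lay in the 42 neurons without a numbered cluster, which held 17.9% of the adult depth. In 5 of these neurons, 3 on replicate 3 and 2 on replicate 4, *Basp1* had 23, 11, 7, 5 and 4 UMIs, from 210 down to 50.7 CPM, a range that meets the p12 plate means. No neuron of a numbered cluster held more than 2 UMIs. The same 5 neurons had 0 UMIs of *Etv1*, a transcription factor of proprioceptors, and 0 of *Whrn* (whirlin), at depths of 60167 to 109445 UMIs. These markers were compared after the 5 neurons had been seen. Of all 208 adult neurons 6 lacked both genes, and the sixth, at 9928 UMIs, was the shallowest of them. Pooled *Basp1* was 120 CPM in these 6 neurons and 1.13 CPM in the other 202.

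**Figure D5:**
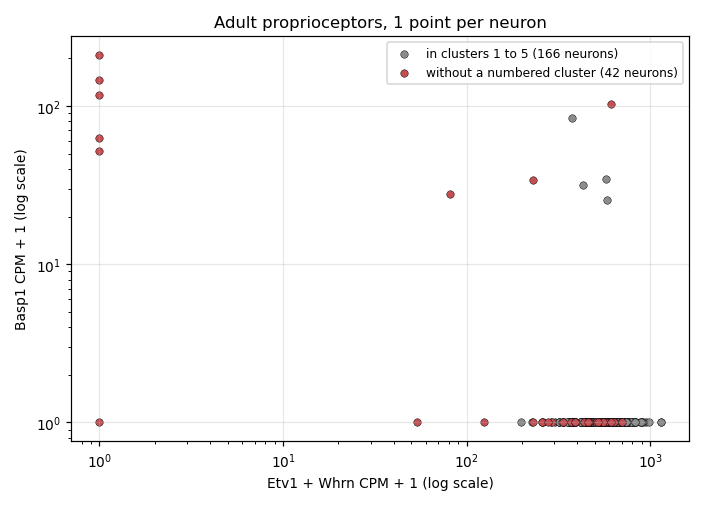
CPM of *Basp1* against the summed CPM of *Etv1* and *Whrn* (each plus 1, log axes) in the 208 adult neurons, 1 point per neuron, red where the annotation gives no numbered cluster. The 5 points at the upper left have 50.7 to 210 CPM of *Basp1* and 0 UMIs of *Etv1* and *Whrn*; most other neurons lie on the floor at 0 CPM of *Basp1*.

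Other genes of the 10 that were scarce in the adult were scarce in these neurons too, with 0 UMIs of *Dcx* and *Marcksl1* and 3 of *Gap43* in all. They carried *Ntrk3* (TrkC) at 228 to 1572 CPM, with a median of 394 CPM against 388 CPM in the numbered clusters, and *Pvalb* at 133 to 1737 CPM, with a median of 1255 against 2134 CPM. *Runx3* was detected in 4 of the 5, with a median of 24.8 CPM against 36.1 CPM, and *Apoe* stood at 52.5 to 99.7 CPM. At p12, 1 of 154 neurons lacked *Etv1* and *Whrn*, with 192 CPM of *Basp1* against a pooled 58.9 CPM in the rest. No pattern is read from this 1 neuron. At e14.5, 18 of 169 neurons lacked *Etv1* and *Whrn*, and pooled *Basp1* was 573 CPM in them and 525 CPM in the rest. *Gap43* was less concentrated: 10 of its 40 adult UMIs (25%) were in the 42 neurons, spread over 9 of them.

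Other genes of axon growth were taken from lists chosen by known function. Of 35 genes of the growth machinery (cytoskeleton, adhesion and transport), 33 passed the filter. From e14.5 to p0, 1 was higher and 7 lower, where 14.7% of all genes were higher and 13.1% lower. From p0 to p12, 3 were higher and 11 lower (9.1% and 9.01% of all genes), and from p12 to the adult 0 higher and 6 lower (7.57% and 6.56%). With single plates left out the calls in either direction numbered 4 to 7, 9 to 15 and 5 to 9. The list medians were -0.05, -0.62 and -0.01 on the log2 scale, where those of all genes were 0.01, 0.02 and 0.04. *Marcks*, the larger relative of *Marcksl1*, fell from 1452 ± 52.5 CPM to 112 ± 4.04 CPM before birth (SD, n = 2 plates each, log2 fold change -3.87, adjusted p = 3.57e-04) and to 10.2 ± 1.45 CPM at p12 (n = 4, -3.22, adjusted p = 7.73e-04). *Evl*, an actin regulator, fell before birth (-2.65, adjusted p = 0.00590) while *Cap2*, another, rose (1.86, adjusted p = 0.0209). Both calls were lost without p0 replicate 1 (adjusted p = 0.0653 and 0.118), and that of *Cap2* also without e14.5 replicate 2 (0.165). *Cd24a*, a surface glycoprotein of young neurons with 88 UMIs at p0 and 4 at p12, fell after birth (-5.20, adjusted p = 3.88e-06). The adhesion gene *Nrcam* fell before birth (-2.53, adjusted p = 0.00124), to 8 UMIs at p0, and rose from p0 to p12 (2.57, adjusted p = 6.37e-04), with plate means of 20.5 CPM at e14.5, 2.89 at p0 and 17.4 at p12. A rise after birth was also called for *Nrn1* (1.78, adjusted p = 0.0102), though not without p0 replicate 1 (0.101) or 2 (0.0900). From p12 to the adult the largest falls were in *Fscn1*, an actin-bundling gene of filopodia with 124 UMIs at p12 and 3 in the adult, 81.1 times lower by pooled level (95% counting interval 27.1 to 399), and in *Dpysl4*, a collapsin response mediator, from 12.1 ± 4.95 to 2.77 ± 1.22 CPM (SD, n = 4 and 5 plates, adjusted p = 0.00216).

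Of 16 genes associated with axon regeneration after nerve injury, 15 passed the filter. They moved both ways, with 1 higher and 4 lower before birth, 3 higher and 5 lower from p0 to p12, and 3 higher and 2 lower from p12 to the adult (list medians -0.27, -0.57 and 0.02), beside the shares of all genes given above. With single plates left out 1 to 4, 3 to 9 and 3 to 5 of the 15 were called. Falling genes included the neuropeptide *Gal*, from 88.4 ± 33.2 CPM at p0 (SD, n = 2) to 1.05 ± 0.38 CPM at p12 (n = 4, log2 fold change -6.17, adjusted p = 1.16e-05, but -4.96 without p0 replicate 2), and the neuronal tubulin *Tubb2b* (-4.64 from p0 to p12, adjusted p = 2.22e-06, and -3.03 from p12 to the adult, adjusted p = 0.00193). *Adcyap1*, which encodes the neuropeptide PACAP, fell in the adult (-0.87, adjusted p = 0.00943, but 0.0509 without p12 replicate 3), and the transcription factor *Klf6* before birth (-1.70, adjusted p = 0.00356, but 0.0506 without p0 replicate 1). The injury-induced transcription factor *Atf3* rose after birth (2.31, adjusted p = 0.0153) and again in the adult (1.46, adjusted p = 0.00760), to 42.6 ± 7.39 CPM (SD, n = 5), and the stress gene *Gadd45a* rose from p0 to p12 (1.31, adjusted p = 0.0180). The rise of *Atf3* after birth, from 6 UMIs at p0, was 1.32 without p0 replicate 1 (adjusted p = 0.244) and 4.07 without p0 replicate 2, and that of *Gadd45a* was not called without p0 replicate 1 (0.0562) or 2 (0.188). *Hspb1*, a small heat shock gene, rose before birth (4.08, adjusted p = 0.0264) and in the adult (2.58, adjusted p = 0.0258), with p12 between them at 30.1 ± 42.8 CPM (n = 4). The first of these calls was lost with any 1 of the 4 plates left out (adjusted p = 0.0626 to 0.134). The second was lost without p12 replicate 2, 3 or 4 or adult replicate 4 (0.0564 to 0.0853), and the difference ranged from 2.17 to 4.36 with single plates left out and was 0.44 with the neurons of numbered clusters only.

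Of 11 genes known to hold axon growth back, 9 passed the filter: 2 were higher and 1 lower before birth, 2 higher from p0 to p12 and 1 higher from p12 to the adult, none lower after birth (list medians -0.51, 0.12 and 0.36). With single plates left out 0 to 2, 2 and 0 to 1 were called in the comparisons in order, and the shares of all genes are as above. *Klf9*, a repressor of axon growth in other neurons, had 1 UMI at e14.5, 14 at p0 and 222 at p12, where it averaged 47.2 ± 10.4 CPM (SD, n = 4), a log2 rise after birth of 3.11 (standard error 0.31, adjusted p = 1.46e-05). *Rock2*, a kinase that acts on the cytoskeleton, rose after birth (1.99, adjusted p = 0.00240) and in the adult (0.73, adjusted p = 0.0454), where the call held in 7 of 20 alternatives and ranged from an adjusted p of 0.0295 to 0.133 with single plates left out. *Lingo1*, a Nogo receptor partner, rose before birth (0.71, adjusted p = 0.0424), and *Ptprs*, a receptor for proteoglycans of the extracellular matrix, fell (-1.87, adjusted p = 0.0224). The call of *Lingo1* held in 4 of 12 alternatives (0.0393 to 0.252 with single plates left out), and that of *Ptprs* was lost with each plate left out in turn (0.0734 to 0.136).

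By the root mean square difference of centred log2(CPM + 1) over the 13 plates, among 7635 genes with a mean of at least 10 CPM, the profile nearest to both *Basp1* (0.615) and *Marcksl1* (0.603) was that of *Fscn1*, at 178 CPM at e14.5, 205 at p0, 28.7 at p12 and 0.181 in the adult. *Dcx* was nearest to *Gal* (0.515), *Stmn1* to *Zfp57* (0.864) and *Sox11* to *Crip1* (0.786). Closer neighbours were found for *Stmn2* with *Olfm1* (0.121), *Dpysl3* with the tubulin gene *Tuba1a* (0.147) and *Crmp1* with *Sptssa* (0.295). Among the 10 genes themselves, *Basp1* and *Marcksl1* were each other's nearest (1.08), as were *Dcx* and *Stmn1* (1.03) and *Stmn2* and *Stmn3* (0.482). These are descriptions over plates of 4 stages and were not tested.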

How the data were processed

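Single tdTomato-positive neurons of mouse dorsal root ganglia were profiled by Plate-seq on 13 plates. The authors aligned the reads with STAR to mm10 (GRCm38), with versions not given in the sources used here, and deposited UMI counts per gene and well, not normalised, with a table of the wells they kept and their clusters. Whether counting used strand is not stated here, so overlapping and antisense genes and close paralogs are uncertain.

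UMI counts of kept neurons were summed per plate, 680212 to 2387288 per plate, and stages were compared in 1 fit of all 13 plates with edgeR 4.0.16 in R 4.3.3 (TMM scaling, filterByExpr, quasi-likelihood test, Benjamini-Hochberg adjustment). Clusters were compared within a stage on sums of at least 2 neurons per cluster and plate. CPM values are means over the neurons of a plate, given with the SD over plates. DESeq2 1.42.0, limma 3.58.1 (log2 of mean CPM + 1), other filters, thinning to 7000 UMIs, all wells with at least 2000 genes and single plates left out were the alternatives. Scripts were tested on simulated counts. Counting intervals (95%, exact) and the floor of 3 UMIs cover counting error only. Doublets were not called, since each well received 1 sorted cell. The 10 genes, the gene lists and the tests were chosen with earlier results of these data known. Named genes of the lists are the largest called falls and rises by log2 fold change, at most 2 in each direction per comparison, and for each of the 10 genes the gene with the nearest profile over plates. A few genes that this rule names are not reported here. Other genes were named after their values were seen.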

Additional observations from a re-analysis of the deposited data

Results flagged for a closer look

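In groups of 4 or 5 plates, the mean CPM of each of the 10 genes was examined for a plate far from the others (Dixon's test, 20 groups), and 3 plates stood apart. Chance alone gives about 1 in 20 groups, and the result for *Dcx* was fixed by a single UMI beside plates at 0, so no more is read from the number of such plates. *Stmn1* was 7.10 CPM on adult replicate 1, from 9 UMIs, and the nearest other adult plate was at 2.68 CPM. *Dcx* was 1.06 CPM on p12 replicate 4, from 1 UMI, and 0 on the other p12 plates. *Dpysl3* was 701 CPM on p12 replicate 1, from 563 UMIs, and the nearest other p12 plate was at 653 CPM.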

How the results depend on the processing

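Between stages, 572 of 620 alternative values for the 10 genes kept their direction and their side of the threshold, 34 lost and 6 gained a call, and 8 reversed, all of *Stmn3* differences that were not called. For p12 against p0, *Stmn3* was 5.32e-04 with no filter on low counts, 0.0555 with all wells, 0.10 with p12 replicates 3 and 4 only, 0.0141 without p0 cluster 3, and -0.10 to 0.10 with single plates left out. It was 0.0650 for the adult against p12 with adult replicates 3 to 5 only and 0.0655 with p12 replicates 1 and 2 only, and 0.0370 for the adult against p0 with adult replicates 3 to 5 only. The alternatives with only some p12 plates, with p0 cluster 3 left out, and for the comparison of p12 clusters 1 and 4 were chosen after seeing the data. *Gap43* from e14.5 to p0 was called after thinning (-1.02, adjusted p = 0.00701). *Stmn2* in the same comparison was called by DESeq2 (adjusted p = 0.0126) and with all wells (0.0250). The falls of *Stmn1* and *Stmn2* from p12 to the adult each held in 8 of 20 alternatives. Beside single plates left out, that of *Stmn1* was lost after thinning (adjusted p = 0.347), with all wells (0.217), with adult replicates 3 to 5 (0.0518) or 1 and 2 only (0.173) and with p12 replicates 3 and 4 only (0.234). That of *Stmn2* was lost with no filter (0.181), after thinning (0.173), with limma (0.114), with adult replicates 3 to 5 only (0.0903) and with p12 replicates 3 and 4 (0.0735) or 1 and 2 only (0.0555), and that of *Dpysl3* after birth with no filter (0.102).

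Across p12 clusters, 2 of the 10 genes were called, against 0 with DESeq2, 0 after thinning (3 tested) and 1 to 4 with single plates left out. With no filter on low counts, and with the clusters of all stages in 1 fit, *Stmn1* joined *Basp1* and *Marcksl1*, which made 3 of 10 tested. *Stmn1* averaged 19.8 CPM in p12 cluster 3 and 0 to 8.24 CPM in the other p12 clusters. *Dpysl3* in p12 cluster 1 against 4 was -0.0012 to 0.21 with single plates left out, and *Basp1* lost its call there with the clusters of all stages in 1 fit (adjusted p = 0.276). No pairing across stages was possible because the stages came from different animals (the replicate numbers used here only name plates). With plate as a replicate block, 3 of the 10 genes were called across p12 clusters and 0 at the other stages, and calls over all genes were 1181 among adult clusters (713 without the block), 814 among p12 clusters (1954), 89 among p0 clusters (77) and 356 among those of e14.5 (212). Over all genes, thinning gave 1520 calls in place of 3314 from e14.5 to p0, 654 in place of 2162 from p0 to p12, 708 in place of 1687 from p12 to the adult and 1560 in place of 4108 from p0 to the adult. For p12 against the adult, limma gave 1081, p12 replicates 3 and 4 only 3070, and replicates 1 and 2 only 529. Single plates left out gave 1455 to 1964, 884 to 2191, 787 to 1960 and 2206 to 4152 in the order above. Across clusters, thinning gave 143, 480 and 6 in the adult, p12 and p0, no filter 1543 (adult), 268 (p0) and 389 (e14.5), DESeq2 1030 (p12) and 105 (e14.5), all stages in 1 fit 1321 (adult) and 103 (e14.5), and single plates left out 306 to 548, 1056 to 2046, 12 to 17 and 17. At p0 and e14.5 a left-out plate leaves 1 sum per cluster, so those fits took the spread, and the 9874 to 10182 genes tested, from the clusters of all stages. Fewer UMIs (thinning) or fewer plates entered the fits after thinning or without a plate, and the cause of the other differences was not tested. Levels of a few UMIs, as of *Dcx* and *Marcksl1* in the adult, are limited by depth.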

Other observations

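At p0 and p12 the wells that the annotation left out, with at least 2000 genes each, also held *Gap43*, *Basp1* and *Marcksl1*. The plate ranges overlapped those of the kept neurons for *Basp1* at both stages and for *Gap43* at p12. They did not overlap for *Gap43* at p0, which was lower, or for *Marcksl1* at either stage, which was higher. In 92 such wells of p0, *Gap43* averaged 1124 to 1128 CPM by plate (1211 to 1361 in kept neurons), *Basp1* 563 to 635 CPM (595 to 612) and *Marcksl1* 419 to 433 CPM (404 to 413), with *Apoe* at 1913 to 2314 CPM (246 to 336). In 216 such wells of p12, *Gap43* averaged 40.7 to 55.7 CPM (23.8 to 62.6 in kept neurons) and *Basp1* 52.0 to 93.8 CPM (55.4 to 85.4). *Marcksl1* was above every kept plate, at 81.1 to 99.2 CPM (37.8 to 74.8), with *Apoe* at 4536 to 6778 CPM (110 to 408). These differences were not tested.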
